A study of Homo sapiens with 12 samples.

Results

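The genes described here encode the cell's own parts of the route that auxin-dependent protein degradation uses. They are constitutive proteasome genes, and those of the SKP1-CUL1-F-box (SCF) ubiquitin ligase with the enzymes that charge and recycle it. They were chosen by gene symbol from a list of 47 genes, out of 60603 genes in the deposited count table. The list holds 32 proteasome genes and 15 genes of the SCF ligase and its partners. Of the proteasome genes 14 encode the 20S core. The other 18 have PSMC or PSMD names and are called genes of the 19S regulatory particle below. That grouping is by name and does not show that each product is a subunit of the finished particle. All 47 symbols were found, and 46 had enough reads to be tested.

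The libraries came from T24, an established human bladder carcinoma line, in 4 groups of 3: WT cells without treatment, WT cells with 5-Ad-IAA, NS1 cells without treatment and NS1 cells with 5-Ad-IAA. 5-Ad-IAA is an auxin derivative and is called the inducer below. The series concerns AlissAID, in which an adaptor that binds an untagged endogenous protein brings it to a plant auxin receptor working inside the host's SCF ligase. The labels do not spell out NS1, say which parts of the system WT cells carry, or say whether the NS1 line is 1 clone, and the dose and time of treatment are not used here. NS1 and WT are different lines, so the construct and any other difference between the lines cannot be told apart. The labels do not state whether replicates were separate cultures, so the p-values measure the spread between these libraries only.

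The proteasome degrades proteins that carry ubiquitin chains. Its 20S core is a barrel of alpha rings, which gate the entrance, and beta rings, which hold the proteolytic sites. The 19S particle caps the barrel, and its ATPases (PSMC genes) unfold the substrate. Its non-ATPase subunits, encoded among the PSMD genes, bind ubiquitin, remove it and hold the particle together. In an SCF ligase CUL1 is the scaffold, RBX1 the RING subunit that docks the ubiquitin-conjugating enzyme, and SKP1 the adaptor to an F-box protein, which picks the substrate. The plant auxin receptor TIR1 is itself an F-box protein and relies on SKP1, CUL1 and RBX1 of the host cell. CUL1 is switched on by attachment of NEDD8, which UBE2M delivers, and CAND1 exchanges one F-box module for another. Levels of transcripts, not of proteins, were measured here.

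Library totals ran from 10593934 to 20266996 counts, and the members that were tested had between 65 and 14993 counts in each library. Replicate 1 was the deepest library of every group and stood apart from replicates 2 and 3, so counts of calls are given with and without it. Replicates 1, 2 and 3 are listed in that order wherever library values are given. Values are normalised CPM, counts scaled to the library total with TMM factors, and a member is called where the edgeR quasi-likelihood test gave a Benjamini-Hochberg adjusted p under 0.05 over 17775 genes. The label of the line was checked against markers: the epithelial keratins KRT7, KRT8 and KRT18 had medians of 2660, 1980 and 1050 normalised CPM. GATA3, a urothelial transcription factor, ranged from 22.2 to 105. The epithelial cadherin CDH1 did not exceed 0.0967, TP63 and UPK3A were at 0, and the leukocyte marker PTPRC did not exceed 0.0873. The transgenes were not analysed here, so the labels WT and NS1 have no check from a construct.

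Upstream sequence is shown for members that differed between the lines with inducer, because 5 of the members below were lower in NS1 cells and SKP1 was higher. Windows of 250 bases before the RefSeq start site (GRCh38.p14) were given for 41 of the 47 members, in 59 windows. No window was given for PSMA7, PSMB1, PSMB6, PSMB7, PSMD4 or BTRC. The stretches shown are the parts of each window that lie outside every exon of GENCODE release 29, for the 6 called members with a single window and at least 150 such bases. They are written in the gene's direction. Capitals mark matches on either strand to 4 short motifs: TGACNNNGC (the core of the antioxidant response element, bound by NRF1 and NRF2), CCAAT (the CCAAT box), CCGGAAG (an ETS core) and TTTCCCGC (an E2F-type site). None of these motifs contains another.
PSMB3, chr17:38752491-38752735, plus strand: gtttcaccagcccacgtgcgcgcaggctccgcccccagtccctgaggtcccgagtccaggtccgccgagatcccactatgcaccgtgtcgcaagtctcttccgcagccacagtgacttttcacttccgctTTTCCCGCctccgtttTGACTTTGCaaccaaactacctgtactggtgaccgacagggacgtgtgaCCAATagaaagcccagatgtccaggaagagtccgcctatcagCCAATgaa
PSMC3, chr11:47426474-47426689, minus strand: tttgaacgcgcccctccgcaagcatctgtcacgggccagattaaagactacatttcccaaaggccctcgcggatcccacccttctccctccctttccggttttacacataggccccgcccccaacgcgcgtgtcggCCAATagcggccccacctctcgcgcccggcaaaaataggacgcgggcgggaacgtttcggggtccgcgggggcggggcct
PSMD3, chr17:39980557-39980796, plus strand: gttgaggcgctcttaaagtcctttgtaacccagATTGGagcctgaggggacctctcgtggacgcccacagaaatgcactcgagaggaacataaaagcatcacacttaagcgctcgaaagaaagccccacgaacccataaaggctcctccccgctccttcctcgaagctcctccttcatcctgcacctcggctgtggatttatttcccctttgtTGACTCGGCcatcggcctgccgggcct
PSMD12, chr17:67366628-67366827, minus strand: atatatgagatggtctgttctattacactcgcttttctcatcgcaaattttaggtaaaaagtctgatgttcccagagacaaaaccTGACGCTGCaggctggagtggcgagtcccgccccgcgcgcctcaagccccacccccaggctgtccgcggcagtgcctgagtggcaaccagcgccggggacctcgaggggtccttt
SKP1, chr5:134177039-134177200, minus strand: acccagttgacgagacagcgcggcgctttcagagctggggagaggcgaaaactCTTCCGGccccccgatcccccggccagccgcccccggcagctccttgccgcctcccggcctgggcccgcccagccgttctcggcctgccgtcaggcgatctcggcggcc
RBX1, chr22:40951128-40951346, plus strand: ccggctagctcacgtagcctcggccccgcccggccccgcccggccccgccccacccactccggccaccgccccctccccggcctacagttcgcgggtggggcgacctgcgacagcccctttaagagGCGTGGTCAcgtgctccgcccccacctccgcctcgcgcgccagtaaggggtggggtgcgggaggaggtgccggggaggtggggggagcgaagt

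A single match was held by PSMC3 (CCAAT), PSMD12 (TGACNNNGC), RBX1 (TGACNNNGC) and SKP1 (CCGGAAG), while PSMD3 held 2 matches and PSMB3 held 4. Over whole windows of 250 bases, TGACNNNGC was found in 18.2% of 33 proteasome windows, in 15.4% of 26 windows of SCF and partner genes and in 10.9% of all 35116 windows. CCAAT was found in 42.4%, 30.8% and 32% of these sets. For CCGGAAG the shares were 18.2%, 7.69% and 8.52%, and for TTTCCCGC 6.06%, 0.0% and 1.39%. Each stretch above held a match, and SKP1 was the only higher member among them. Whether matches separate higher from lower members therefore cannot be judged. In their whole windows SKP1 also held TGACNNNGC and PSMD12 also held CCGGAAG, in parts not shown. A match describes letters only, and binding was not measured.

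Levels of different members were compared per kilobase of exon, in normalised CPM per kb. In untreated WT cells the median of the 46 members was 26.1. The highest was PSMA7, an alpha-ring subunit, at 297 ± 47.5 (SD, n = 3), followed by PSMD2, a large scaffold subunit of the 19S base that receives ubiquitin shuttles, at 149 ± 20.6 (SD, n = 3), and the ATPase PSMC3 at 125 ± 21.7 (SD, n = 3). The ranges of mean ± SD of PSMD2 and PSMC3 overlapped, and that of PSMA7 lay above both. Other proteasome members ran down to 9.57 for the ATPase PSMC6. The SCF core ran from 13.1 for SKP1 through 13.6 for RNF7, a RING protein related to RBX1, and 14.6 for CUL1 to 18.3 for RBX1. Among F-box proteins, SKP2 was at 8.71 ± 2.18, BTRC at 2.83 ± 0.662 and FBXW7 at 0.617 ± 0.0924 (SD, n = 3 each), with no overlap between neighbours. CAND2, a relative of CAND1, had 1 to 11 counts per library and was not tested. With the longest transcript as the length, the median was 38.5, and PSMA7, PSMD2 and FBXW7 kept the highest, the second highest and the lowest place. The SCF core then ran from 15.5 for RNF7 to 30.2 for RBX1.

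With the inducer present, transcripts of 13 of the 32 proteasome genes were lower in NS1 than in WT cells. Of the SCF core CUL1 and RBX1 were lower and SKP1 higher. Of the 46 members 18 were called, 16 lower and 2 higher. This is 39.1% of the members, where 28.2% of all tested genes were called. The excess lay in the lower direction, with 34.8% of members called lower against 14.5% of all genes, while 4.35% were called higher against 13.6%. All 18 genes of the 19S particle had a negative fold change, with a median of -0.28 on the log2 scale and 9 called. The 20S core had a median of -0.14, with 12 of 14 negative and 4 called, and 9 of 14 were negative without replicate 2. Over all genes tested the median was -0.004. The 14 SCF and partner genes had a median of -0.01, with 3 called lower and 2 higher. Without replicate 1 the count was also 18, without replicate 2 it was 2 (PSMA2 and CUL1), and without replicate 3 it was 6. Leaving out any 1 treated library of replicate 2 or 3, in either line, gave 10, and no share of all genes is given for those fits. In the fits without replicate 1, 2 or 3, 34.0%, 9.03% and 11.7% of all genes were called. Called lower in these fits were 34.8%, 4.35% and 10.9% of the members, against 17.1%, 4.5% and 5.7% of all genes. The excess in the lower direction was therefore absent without replicate 2. Scaling by library totals in place of TMM shifted the split among all called genes from 51.5% lower to 63.1% lower, and called 20 members, 18 lower and 2 higher, against 28.4% of all genes.

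The difference between the lines varied with the chromosome of the gene. Without treatment, the median fold change of all tested genes was -0.41 on chromosome 7, -0.27 on chromosome 17, -0.20 on chromosome 11 and -0.19 on chromosome 22, where that of any other chromosome was -0.05 or higher. PSMA2, PSMC2 and CUL1, the 3 members called without treatment, are all the members on chromosome 7. With inducer, 12 of the 13 tested members on these 4 chromosomes were called lower, where 28.8% of the 3379 genes tested there were, and the exception was PSMB6. Of the 33 members elsewhere, PSMA7, PSMC4, PSMD2 and UBE2M were called lower and SKP1 and BTRC higher, where 11.1% and 15.5% of the 14192 genes tested there were called lower and higher. BTRC lies on chromosome 10, whose median was 0.26 untreated and 0.22 with inducer, and SKP1 on chromosome 5, with 0.10 and 0.08. The grouping of chromosomes was chosen after these values were seen. DNA copy number was not measured, and its part in the difference between the lines was not tested.

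With inducer, 38 of the 46 members lay below the median of all tested genes on their own chromosome. All 18 genes of the 19S particle lay below the median of their chromosome, by a median of -0.20, as did 13 of the 14 genes of the 20S core, by -0.17. The 14 SCF and partner genes were even, with 7 below and a median of -0.03. PSMD2 was farthest below at -0.51, and PSMD11 and PSMC2 were close to their chromosomes at -0.03 and -0.08. CUL1 was at -0.27 and PSMA2 at -0.35 from the median of chromosome 7. Without treatment the median distance was -0.02 for the 19S particle, with 12 of 18 below, and -0.08 for the 20S core, with 10 of 14 below. On the other chromosomes alone, all 11 genes of the 19S particle had negative fold changes with inducer, with a median of -0.20. These distances are descriptions without a test.

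**Figure D1:**
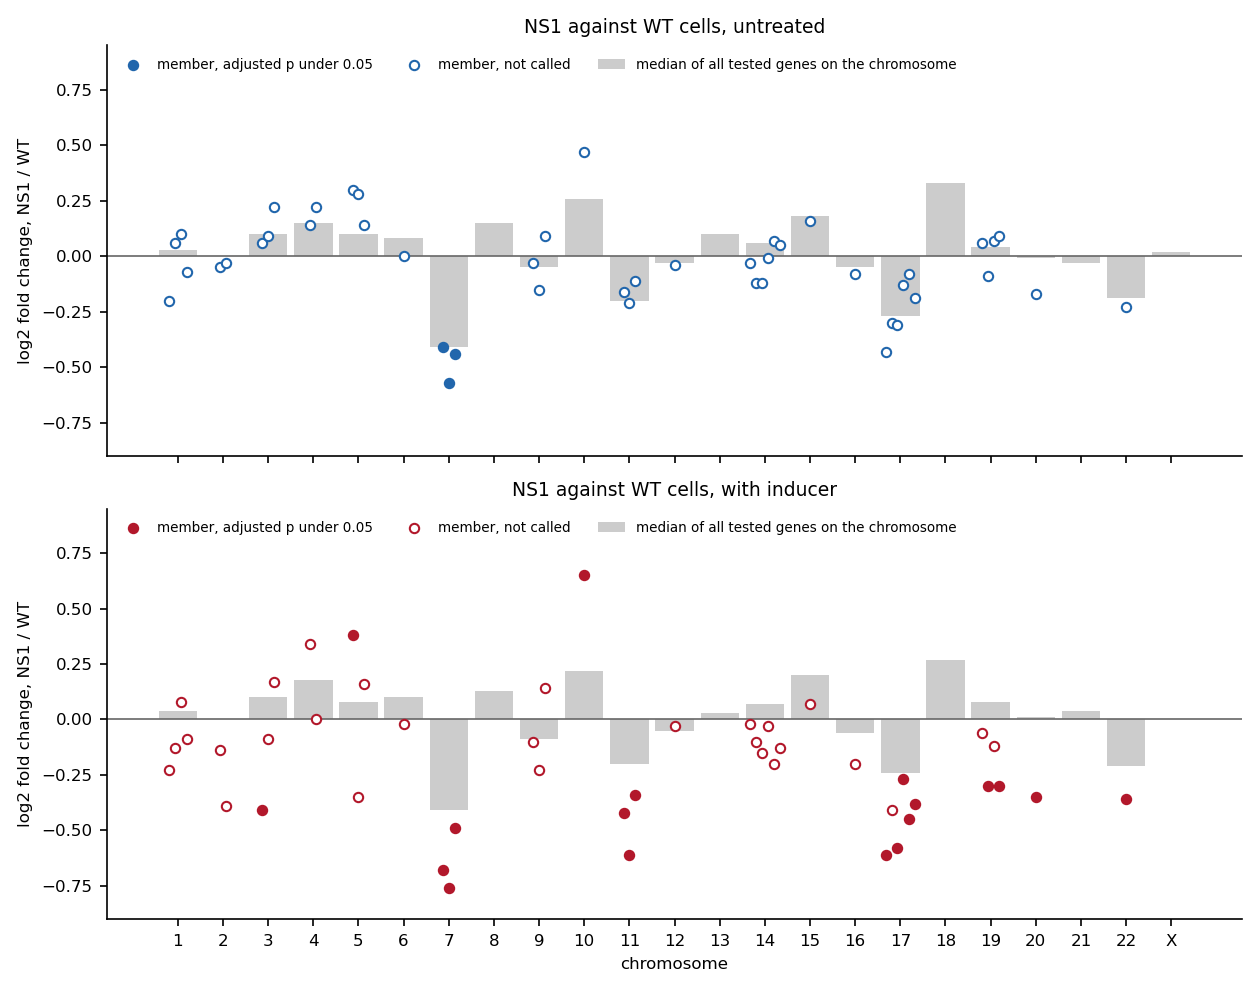
Log2 fold change of NS1 against WT cells for each tested member (points, filled where the adjusted p is under 0.05) and the median of all tested genes (bars), by chromosome, untreated (top) and with inducer (bottom). The bars are lowest on chromosome 7, at -0.41 in both panels, and 12 of the 16 members called lower with inducer lie on chromosomes 7, 11, 17 and 22.

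In GENCODE release 29 (GRCh38), whose gene versions match those of the files for these genes, PSMA1 lies at chr11:14504874-14643635, PSMC3 at chr11:47418769-47426473, PSMC4 at chr19:39971005-39981441, SKP1 at chr5:134148935-134177038, RBX1 at chr22:40951347-40973309, UBE2M at chr19:58555712-58558960 and SKP2 at chr5:36151989-36184319. For genes with another version only the chromosome is given. PSMB3, PSMB6, PSMC5, PSMD3, PSMD11 and PSMD12 lie on chromosome 17, PSMD13 on chromosome 11, PSMA7 on chromosome 20, PSMD2 on chromosome 3 and PSMD14 on chromosome 2.

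In the alpha ring, PSMA1, PSMA2 and PSMA7 were lower in treated NS1 cells. PSMA2 had the largest fold change of all proteasome members. Its normalised CPM was 95.5, 79.3 and 102 in untreated WT, 104, 98.1 and 94.3 in treated WT, 67.0, 58.3 and 61.2 in untreated NS1 and 62.5, 54.6 and 57.4 in treated NS1 libraries. Every NS1 library was below every WT library. The difference was -0.76 ± 0.11 (SE) on the log2 scale with inducer (adjusted p = 0.000292, a level 0.589 times that of WT) and -0.57 ± 0.11 untreated (adjusted p = 0.00582). PSMA7 was at 491, 455 and 613 in untreated WT, 530, 499 and 530 in treated WT, 469, 451 and 468 in untreated NS1 and 417, 369 and 434 in treated NS1 libraries. The treated groups did not overlap, at -0.35 ± 0.12 (adjusted p = 0.0378), but no fit without a single library of these groups kept the call. PSMA1 was at 135, 133 and 159 in untreated WT, 144, 157 and 148 in treated WT, 141, 118 and 124 in untreated NS1 and 128, 97.7 and 110 in treated NS1 libraries. With inducer it was lower in NS1 by -0.42 ± 0.12 (adjusted p = 0.0199), and the untreated groups overlapped. The other alpha genes were not called, with fold changes from -0.23 for PSMA5 to 0.07 for PSMA4. Exons of PSMA1 and PSMA2 are shared on the same strand with readthrough genes, over 24.66% and 14.64% of their exon bases, and these had values of -0.38 and -0.71 in the same comparison (adjusted p = 0.024 and 0.000547). Reads of each pair cannot be told apart there.

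In the beta ring only PSMB3, a subunit without a proteolytic site, was called. Its normalised CPM was 114, 90.5 and 125 in untreated WT, 127, 118 and 104 in treated WT, 83.1, 76.1 and 84.8 in untreated NS1 and 87.4, 64.1 and 77.9 in treated NS1 libraries. NS1 and WT libraries did not overlap under either condition. The difference was -0.61 ± 0.14 with inducer (adjusted p = 0.00631) and -0.43 ± 0.14 untreated (adjusted p = 0.0618, not called). The 3 genes of the proteolytic sites were not called: PSMB5 (chymotrypsin-like) stood at -0.03, PSMB6 (caspase-like) at -0.41 with an adjusted p of 0.0603, and PSMB7 (trypsin-like) at -0.10. PSMB2, a further beta subunit, was at 148, 132 and 139 in untreated WT, 144, 135 and 132 in treated WT, 150, 143 and 145 in untreated NS1 and 134, 120 and 120 in treated NS1 libraries. The lines overlapped for PSMB2, at -0.13 ± 0.09 with inducer (adjusted p = 0.306).

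Of the 6 ATPases that unfold substrates, PSMC2, PSMC3, PSMC4 and PSMC5 were lower in treated NS1 cells. PSMC3 was at 250, 262 and 341 in untreated WT, 280, 308 and 318 in treated WT, 259, 233 and 244 in untreated NS1 and 222, 179 and 191 in treated NS1 libraries. Its treated groups did not overlap and its untreated groups did. The difference was -0.61 ± 0.13 with inducer (adjusted p = 0.00351) and -0.21 ± 0.13 untreated (adjusted p = 0.311). PSMC5 was at 171, 155 and 194 in untreated WT, 175, 172 and 186 in treated WT, 148, 132 and 141 in untreated NS1 and 127, 108 and 123 in treated NS1 libraries. With inducer it was lower by -0.58 ± 0.11 (adjusted p = 0.00151). Opposite-strand exons of FTSJ3 cover 19.47% of PSMC5 exon bases, and FTSJ3 also stood at -0.58 (adjusted p = 0.000742). Whether strand was used in counting is not given in the sources used here.

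PSMC2 was low in NS1 cells under both conditions, at 99.7, 83.4 and 96.0 in untreated WT, 108, 96.6 and 89.6 in treated WT, 74.3, 65.3 and 65.8 in untreated NS1 and 74.4, 65.6 and 69.7 in treated NS1 libraries. No NS1 library reached a WT library. The differences of PSMC2 were -0.49 ± 0.11 with inducer (adjusted p = 0.00478) and -0.44 ± 0.11 untreated (adjusted p = 0.0186). PSMC4 was at 95, 88.1 and 103 in untreated WT, 102, 96.8 and 108 in treated WT, 88.0, 87.3 and 92.7 in untreated NS1 and 92.9, 76.5 and 79.6 in treated NS1 libraries. It was lower with inducer by -0.30 ± 0.10 (adjusted p = 0.0418), and 1 of the 6 fits that left out a single library kept the call. PSMC1 and PSMC6 were not called, at -0.20 and -0.13. PSMC1 is the least certain of the ATPases, since exons of NRDE2 on the opposite strand cover 75.82% of it and genes named as its pseudogenes held 105.757% as many counts as PSMC1 itself.

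Among the 12 non-ATPase (PSMD) genes, PSMD2, PSMD3, PSMD11, PSMD12 and PSMD13 were lower in treated NS1 cells. PSMD2 was at 702, 800 and 926 in untreated WT, 704, 890 and 919 in treated WT, 863, 807 and 867 in untreated NS1 and 683, 599 and 602 in treated NS1 libraries. The untreated lines overlapped, at 0.06 ± 0.13, and the treated ones did not, at -0.41 ± 0.13 (adjusted p = 0.0298). The gap between the treated groups was narrow for PSMD2, between replicate 1 of each line. The other called genes encode parts of the 19S lid, the part that carries the deubiquitinase. PSMD12 was at 91.4, 100 and 88.3 in untreated WT, 95.9, 100 and 93.4 in treated WT, 103, 79.7 and 82.8 in untreated NS1 and 78.4, 68.3 and 65.0 in treated NS1 libraries, with a difference of -0.45 ± 0.12 with inducer (adjusted p = 0.0109). PSMD3 was at 168, 150 and 158 in untreated WT, 178, 158 and 170 in treated WT, 136, 140 and 140 in untreated NS1 and 135, 126 and 128 in treated NS1 libraries. The lines did not overlap for PSMD3 under either condition, and the difference was -0.38 ± 0.09 with inducer (adjusted p = 0.00651) and -0.19 ± 0.09 untreated (adjusted p = 0.173).

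PSMD13 was at 127, 134 and 162 in untreated WT, 152, 151 and 161 in treated WT, 141, 121 and 131 in untreated NS1 and 128, 116 and 123 in treated NS1 libraries. PSMD11 was at 102, 102 and 94.8 in untreated WT, 107, 99.1 and 101 in treated WT, 97.3, 87.3 and 89.2 in untreated NS1 and 90.2, 84.1 and 81.2 in treated NS1 libraries. Only the treated groups of PSMD13 and PSMD11 were apart, by -0.34 ± 0.11 (adjusted p = 0.0329) and -0.27 ± 0.09 (adjusted p = 0.0406), and 1 of the 6 fits without a single library kept each call. PSMD14, the deubiquitinase of the lid, was at 97.1, 91.1 and 112 in untreated WT, 107, 98.4 and 97.3 in treated WT, 110, 87.5 and 95.4 in untreated NS1 and 93.9, 65.8 and 70.7 in treated NS1 libraries. Its treated groups were apart, yet it just missed the threshold at -0.39 ± 0.14 (adjusted p = 0.052). PSMD1, PSMD4, PSMD5, PSMD6, PSMD7 and PSMD8 were not called, with fold changes between -0.23 and -0.09. PSMD4, a ubiquitin receptor, stood at -0.09 (adjusted p = 0.539). SIRT3 exons on the opposite strand cover 6.63% of PSMD13, and SIRT3 stood at -0.40 (adjusted p = 0.0278).

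Summed over genes, the 19S particle was at 3020, 3156 and 3219 normalised CPM in treated WT libraries and at 2668, 2333 and 2431 in treated NS1 libraries. Untreated libraries were at 2853, 2837 and 3302 in WT and at 2973, 2775 and 2915 in NS1. The treated NS1 libraries were thus below the other 9 libraries. PSMD2 alone made up 683, 599 and 602 of these sums in treated NS1 and 863, 807 and 867 in untreated NS1 libraries. The sum is thus weighted to PSMD2, and the separation is not shown for the other genes without it. Group means were 2997 ± 264 in untreated WT, 3132 ± 102 in treated WT, 2888 ± 102 in untreated NS1 and 2477 ± 172 in treated NS1 cells (SD, n = 3 each). The 20S core was at 2044, 1856 and 2377 in untreated WT, 2168, 2153 and 2079 in treated WT, 1943, 1905 and 2005 in untreated NS1 and 1890, 1692 and 1937 in treated NS1 libraries. Here the treated NS1 group lay below the treated WT group and overlapped both untreated groups. All 32 genes together took between 0.386% of counts, in replicate 2 of treated NS1 cells, and 0.555%, in replicate 3 of untreated WT cells. These sums are descriptions without a test.

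The SCF core split by subunit. CUL1, the scaffold, was at 57.3, 51.5 and 46.8 in untreated WT, 58.5, 48.1 and 50.6 in treated WT, 43.7, 38.1 and 35.5 in untreated NS1 and 34.1, 33.3 and 30.6 in treated NS1 libraries. NS1 libraries were below all WT libraries. With inducer the difference was -0.68 ± 0.12 (adjusted p = 0.00104, a level 0.623 times that of WT), and untreated it was -0.41 ± 0.12 (adjusted p = 0.0387). SKP1, the adaptor, went the other way, at 164, 155 and 183 in untreated WT, 175, 180 and 162 in treated WT, 214, 199 and 204 in untreated NS1 and 243, 201 and 230 in treated NS1 libraries. All NS1 libraries of SKP1 were above all WT libraries, by 0.38 ± 0.10 with inducer (adjusted p = 0.0141) and 0.30 ± 0.10 untreated (adjusted p = 0.0768, not called). Genes named as SKP1 pseudogenes held 18.413% as many counts as SKP1, and SKP1P1 was also higher, by 0.46 (adjusted p = 0.0148). RBX1, the RING subunit, was at 53.6, 50.9 and 65.1 in untreated WT, 62.7, 62.5 and 56.8 in treated WT, 47.5, 47 and 50.1 in untreated NS1 and 46.7, 41.0 and 54.1 in treated NS1 libraries. Its groups did not overlap under either condition, with -0.36 ± 0.12 with inducer (adjusted p = 0.0404) and -0.23 ± 0.12 untreated (adjusted p = 0.244). Among the 6 fits without a single library, all kept the call of CUL1 with inducer, 4 that of SKP1 and 1 that of RBX1. RNF7 was not called, at 0.17.

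UBE2M, the enzyme that passes NEDD8 to CUL1, was at 73.3, 76.5 and 88.6 in untreated WT, 83.7, 81.0 and 83.4 in treated WT, 91.7, 80.1 and 82.0 in untreated NS1 and 71.3, 62.2 and 68.2 in treated NS1 libraries. The treated NS1 libraries were below all 9 others. UBE2M was lower than in treated WT cells by -0.30 ± 0.10 (adjusted p = 0.043), a call that 1 of the 6 fits without a single library kept. NEDD8 itself was not called, at -0.02, and neither was the exchange factor CAND1. CAND1 was at 176, 157 and 137 in untreated WT, 166, 141 and 143 in treated WT, 142, 154 and 162 in untreated NS1 and 138, 156 and 149 in treated NS1 libraries, with overlap in every comparison. The 4 ubiquitin-conjugating enzymes of the list (CDC34 and UBE2R2, which extend chains, and UBE2D2 and UBE2D3) were not called, from -0.06 to 0.16. UBE2D3 was at 152, 182 and 190 in untreated WT, 157, 190 and 193 in treated WT, 228, 193 and 189 in untreated NS1 and 202, 167 and 172 in treated NS1 libraries, again overlapping.

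The F-box proteins differed among themselves. BTRC, the substrate receptor for phosphorylated beta-catenin and the NF-kB inhibitor, was at 22.8, 19.3 and 14.1 in untreated WT, 19.3, 16.7 and 19.7 in treated WT, 28.6, 24.9 and 24.8 in untreated NS1 and 33.1, 27.9 and 26.4 in treated NS1 libraries. All NS1 libraries were above all WT libraries, by 0.65 ± 0.16 with inducer (adjusted p = 0.0086, a level 1.57 times that of WT) and 0.47 ± 0.16 untreated (adjusted p = 0.0742). SKP2, which recruits the CDK inhibitor CDKN1B for degradation, was at 42.3, 32.3 and 25.7 in untreated WT, 46.6, 29.6 and 26.2 in treated WT, 45.7, 38.0 and 38.9 in untreated NS1 and 27.2, 29.7 and 24 in treated NS1 libraries. Replicate 1 of SKP2 was high in 3 of the 4 groups, and the lines overlapped, at -0.35 ± 0.21 with inducer (adjusted p = 0.242). FBXW7, which recruits cyclin E and MYC, had the fewest counts of the tested members and was not called, at 0.34 ± 0.18 with inducer.

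Without treatment, PSMA2, PSMC2 and CUL1 were lower in NS1 than in WT cells and no member was called higher. These 3 are 6.52% of the 46, where 12.5% of all genes tested were called and 7.05% called lower. The members' libraries did not overlap for 9 genes, 7 lower and 2 higher (SKP1 and BTRC), or 19.6% against 31.0% of all genes. The proteasome median was -0.09 and that of the SCF and partner genes 0.11. Without replicate 1 the latter was 0.02. Without replicate 1, 4 members were called, the same 3 lower and BTRC higher, and without replicate 2 or without replicate 3 none was called. Leaving out only the untreated NS1 library of replicate 2, or that of replicate 3, gave 1, again with no share of all genes given. In the fits without replicate 1, 2 or 3, 19.6%, 1.13% and 1.0% of all genes were called. The comparisons of the lines with and without inducer share no library, but the treated comparison shares its NS1 libraries with the inducer comparison below.

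The inducer comparison in NS1 cells asks what changed when 5-Ad-IAA was added. In the fit without pairs no member was called, where 6.15% of all genes were. At an unadjusted p under 0.05 there were 9 members, all lower, or 19.6%, where 20.8% of all genes passed in either direction and 10.6% were lower. Libraries of replicate 1 deviated together in each line, but correlations did not clearly tell same-numbered from other pairs among replicates 2 and 3. Pairs were taken by replicate number and kept as blocks in the fit, separately in WT and NS1 cells. The same 9 genes were then called lower: PSMB2, PSMC3, PSMC5, PSMD2, PSMD12, PSMD14, CUL1, UBE2M and SKP2. With those blocks 25.9% of all genes were called, 12.8% lower, so the members' 19.6% was below the share of calls in either direction and above the share called lower. Blocks that joined the lines by number called 4 members (PSMD2, PSMD12, UBE2M and SKP2), against 13.6% of all genes, and DESeq2 called 2 (PSMD2 and UBE2M), against 8.37%. Without replicate 1, the fit without pairs called PSMD2, PSMD14 and SKP2, and without replicate 2 or replicate 3 it called none; 11.4%, 0.0% and 0.0% of all genes were called in these fits. Of the 46 fold changes 37 were negative, with a median of -0.08 where that of all genes was 0.006, and 31 were negative without replicate 2. The medians were -0.10 for the 19S particle and -0.06 for the 20S core, and the chromosome medians of all genes ran from -0.08 to 0.06. Scaling by library totals shifted the split among all called genes from 55.2% lower to 67.2% lower.

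SKP2 had the largest inducer value of the members, at -0.60 ± 0.21 (adjusted p = 0.117, and 0.000216 with the block within lines). Its 3 treated libraries were below its 3 untreated ones, with replicate 1 falling from 45.7 to 27.2. PSMD2 stood at -0.43 ± 0.13 (adjusted p = 0.0697, and 0.000594 with the block), with a treated level 0.743 times the untreated one. UBE2M stood at -0.33 ± 0.10 (adjusted p = 0.0724, and 0.00398 with the block). For both, the treated and untreated NS1 libraries did not overlap. The ATPases PSMC3 and PSMC5 were at -0.31 ± 0.13 and -0.24 ± 0.11 (adjusted p = 0.179 and 0.227, and 0.00732 and 0.0195 with the block). The lid genes PSMD12 and PSMD14 were at -0.32 ± 0.12 and -0.34 ± 0.14 (adjusted p = 0.119 and 0.171, and 0.00326 and 0.00477 with the block), of which PSMD14 overlapped between groups. PSMB2 was at -0.22 ± 0.09 and CUL1 at -0.26 ± 0.12 (adjusted p = 0.177 and 0.235, and 0.0223 and 0.0246 with the block). Each of these 9 was lower in all 3 same-numbered pairs. For all but PSMD14 the groups did not overlap, so any pairing would give this, and it adds no support. PSMA1 at -0.19, CAND1 at -0.05 and UBE2D3 at -0.17 were called by none of these fits. SKP1 was at 0.13 ± 0.10, RBX1 at -0.03 ± 0.12 and BTRC at 0.16 ± 0.16, with adjusted p of 0.547, 0.936 and 0.642. PSMA2 and PSMC2, which were low in NS1 cells under both conditions, stood at -0.10 and 0.03.

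In WT cells no member was called for the inducer by edgeR or DESeq2, and neither was any other gene (0.0%). No member reached an unadjusted p under 0.05, against 0.529% of all genes (94 genes), and no member's groups were apart, against 3.41%. Fold changes of the members ran from -0.20 for FBXW7 to 0.15 for PSMD8, with a median of 0.04. SKP2 was at 0.03, PSMD2 at 0.05 and UBE2M at 0.06. All 18 genes of the 19S particle had small positive values, from 0.01 to 0.15, but without replicate 2, 8 of the 18 and 13 of the 14 genes of the 20S core were negative. The members had a median of -0.01 in the fit lacking replicate 2 and of 0.12 in that lacking replicate 3.

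The difference between the inducer effects of NS1 and WT cells was fitted as an interaction. No member was called in the fit without pairs, where 0.0225% of all genes were. At an unadjusted p under 0.05 there were 4, all lower (PSMC3, PSMD2, PSMD12 and UBE2M), or 8.7%, where 12.4% of all genes passed in either direction and 6.49% were lower. DESeq2 called none, against 2.76%, and blocks that joined the lines by number called none, against 3.57%. With pairs kept as blocks within lines 6 members were called, all lower: PSMC3, PSMD2, PSMD12, PSMD14, UBE2M and SKP2. They are 13% of the members, where 14% of all genes were called with those blocks and 7.06% called lower. All 18 genes of the 19S particle had a negative interaction, with a median of -0.19, and so did 13 of 14 genes of the 20S core, with a median of -0.08. Chromosome medians of all genes ran from -0.08 to 0.04 here. Without replicate 2 the 19S median was -0.16, with 16 of 18 negative, and the 20S median was 0.06, with 5 of 14 negative. Without replicate 3 the medians were -0.27 and -0.21.

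Genes around the proteasome and the ligase were taken from further lists, whose counts stand beside 14.5% of all genes called lower and 13.6% called higher between the lines with inducer, and 7.05% and 5.45% between untreated lines. A list of 6 genes put with the 19S particle held ADRM1, SEM1, UCHL5, USP14, PSMD9 and PSMD10. Of these 3 were lower in treated NS1 than treated WT cells and none was higher. They were the ubiquitin receptor ADRM1 at -0.72 (adjusted p = 0.000478), its partner deubiquitinase UCHL5 at -0.69 (adjusted p = 0.00479) and the small lid subunit SEM1 at -0.49 (adjusted p = 0.00639). SEM1 was also lower without treatment, at -0.45 (adjusted p = 0.0231). Of 6 assembly chaperones, 3 were lower with inducer, PSMG3 at -0.81, PAAF1 at -0.43 and PSMG1 at -0.39 (adjusted p = 0.00238, 0.0273 and 0.0429). Of 6 genes around NRF1, the transcription factor that drives proteasome genes when the proteasome is inhibited, the small MAF protein MAFF was lower with inducer at -1.39 (adjusted p = 0.0408), and DDI2, the protease that activates NRF1, was higher without treatment at 0.61 (adjusted p = 0.0368).

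The 8 inducible catalytic subunits and activators, which interferon raises in many cells, had 2 genes lower in NS1 cells and none higher. PSMB9, an immunoproteasome subunit, had means of 21.4 ± 3.6 in untreated WT, 22.8 ± 1.14 in treated WT, 8.31 ± 2.41 in untreated NS1 and 11.8 ± 3.36 in treated NS1 cells (normalised CPM, SD, n = 3 each). It was lower by -1.37 untreated (adjusted p = 0.00278) and by -0.97 with inducer (adjusted p = 0.00656). PSME2, a subunit of the activator cap, was lower by -0.52 and -0.53 (adjusted p = 0.0214 and 0.00942). In the inducer comparison in NS1 cells none of the 8 was called in the fit without pairs. With the block within lines PSMB8, PSMB9, PSMB10 and PSME1 were higher (adjusted p = 0.024, 0.0239, 0.0195 and 0.00248). In that fit 2318 of the 17775 tested genes were called higher, and 25.9% were called in either direction. Blocks that joined the lines by number called 1 of the 8 higher, where 13.6% of all genes were called in either direction. Of 12 interferon-stimulated genes, 9 were lower in untreated NS1 than untreated WT cells, where 7.05% of all genes were, with a median of -0.83. Between the treated lines 2 of the 12 were higher and 1 was lower, with a median of 0.23, where 13.6% and 14.5% of all genes were higher and lower. PSMB9 and PSME2 were lower there as well. With inducer in NS1 cells 8 of the 12 rose in the fit without pairs, where 2.76% of all genes did. The part of these genes in the values of the subunits was not tested.

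Around the SCF ligase, the COP9 signalosome, which removes NEDD8 from cullins, had 3 of 10 genes lower and 1 higher in treated NS1 against treated WT cells. COPS6 was at -0.95, COPS3 at -0.68 and GPS1 at -0.47, and COPS2 at 0.46 (adjusted p = 0.000128, 0.00449, 0.0038 and 0.00426). Of 9 other neddylation genes 2 were lower, DCUN1D5 at -0.50 and NAE1 at -0.45 (adjusted p = 0.00395 and 0.0048). Of 7 other cullins 4 were higher and 1 was lower. CUL7 was at 0.87, CUL9 at 0.60 and CUL2 at -0.51 (adjusted p = 0.00108, 0.00294 and 0.00579). Of 10 ubiquitin genes, E1 enzymes and related conjugating enzymes, UBE2D1 was higher at 0.78 and RPS27A, a ubiquitin fusion gene, at 0.42 (adjusted p = 0.00133 and 0.0207). Of 8 shuttle and segregase genes, UFD1 was at -0.45, UBQLN2 at 0.38 and UBQLN4 at -0.36 (adjusted p = 0.00608, 0.0102 and 0.0384). Of 19 genes around the proteasome and the ligase that are named as lower with inducer, proliferation and interferon markers left out, 9 lie on the 4 chromosomes above and 10 elsewhere. Of all tested genes called lower in that comparison, 974 lie on these chromosomes and 1582 elsewhere. Each list gave at most 3 named genes, by size, so the 19 are not all of the listed genes called lower. SEM1, PSMG3 and COPS6 lie on chromosome 7, PAAF1 and DCUN1D5 on chromosome 11, COPS3 and GPS1 on chromosome 17 and MAFF and UFD1 on chromosome 22. The other 10 are PSMB9, PSME2, UCHL5, ADRM1, PSMG1, NAE1, CUL2, UBQLN4 and, among the F-box genes and the SKP2 cofactor, CKS1B and FBXO4.

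Of 25 genes, the other F-box genes and the SKP2 cofactor, 5 were higher and 5 lower in treated NS1 against treated WT cells, or 20% each way. FBXO32 was highest at 1.61 (adjusted p = 0.00588), while CKS1B, the cofactor that SKP2 needs to bind CDKN1B, was at -1.10 (adjusted p = 9.77e-05) and FBXO4 at -0.94 (adjusted p = 0.0156). With inducer in NS1 cells, where 3.39% of all genes were called lower, 3 of the 25 fell: CKS1B at -0.76, CCNF at -0.66 and FBXO5 at -0.48 (adjusted p = 0.00717, 0.00456 and 0.0377). CKS1B went from 60.6 ± 2.48 to 35.6 ± 5.38 normalised CPM (SD, n = 3 each). Transcripts of proliferating cells were also lower: of 18 markers 14 fell with inducer in NS1 cells, with a median of -0.69, and none was called in WT cells. In the presence of inducer, 17 of the 18 were lower in NS1 than in WT cells, with a median of -0.80. Whether lower proliferation has a part in the lower proteasome and SCF transcripts was not tested. In these bulk libraries fewer cells with a transcript and less of it per cell cannot be told apart.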

How the data were processed

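RNA-seq libraries of T24 cells were compared in 4 groups of 3, as the labels name them. The authors deposited raw counts per gene for all libraries in 1 table. STAR 2.7.3a, featureCounts 1.6.4 and hg38 are named in the submitters' processing notes. The annotation release and the use of strand are not given in the sources used here. Reads that fit several copies of a gene, or overlapping genes, could therefore be lost or counted for the wrong one.

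Counts were fitted in edgeR 4.0.16 with TMM factors, 1 mean for each group over all 12 libraries, and the quasi-likelihood test. Genes were filtered with filterByExpr, and p-values were adjusted over 17775 genes by Benjamini-Hochberg. Positions came from GENCODE release 29 and upstream windows from RefSeq (GRCh38.p14). The script was tested on simulated counts with known changes, for the inducer in NS1 cells in the fit without pairs. It recovered 12% of changes of 0.5 on the log2 scale, 75.5% of changes of 1 and 92.9% of changes of 2. Of its calls 8.84% were false, at an adjusted p under 0.05. Most inducer values of the members were smaller than 0.5, so a member that was not called is not shown to be unchanged.

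Within each line, deviations from the group means correlated between same-numbered libraries, at 0.713, 0.386 and 0.384 in NS1 and 0.752, 0.385 and 0.256 in WT cells. Unlike numbers among replicates 2 and 3 gave 0.371 and 0.278 in NS1 and 0.367 and 0.248 in WT cells. Replicate 1 against replicate 2 or 3 gave negative values. The labels do not say what a number marks. Only the pair of replicate 1 therefore rests on these correlations, and the pairs of replicates 2 and 3 rest on the number alone. Beyond the closing section's alternatives (RLE factors, library totals, DESeq2, other filters, only the groups compared, replicate blocks, libraries left out), the split by chromosome was added after the data were seen. The members and gene lists were chosen with earlier results of these data known. Genes of the lists were named where called, up to 3 for each list and comparison, by size. Members were named where called in a comparison or by a fit with blocks, or where they led their role.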

Additional observations from a re-analysis of the deposited data

Results flagged for a closer look

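For 6 members the inducer effect was called different between NS1 and WT cells in 1 fit, by a test of the difference itself. This was the interaction in the edgeR fit with pairs kept as blocks within each line. It was the only 1 of 7 alternative fits of all libraries that called them. None of the 12 fits without a single library did so. The differences on the log2 scale were -0.63 for SKP2 (adjusted p = 0.00466), -0.48 for PSMD2 (adjusted p = 0.00679), -0.42 for PSMC3 (adjusted p = 0.0201), -0.40 for UBE2M (adjusted p = 0.0193), -0.37 for PSMD12 (adjusted p = 0.0198) and -0.37 for PSMD14 (adjusted p = 0.0409). These 6 are 13% of the members, where 14% of all genes were called in that fit and 7.06% called lower. Each was lower with inducer in all 3 pairs of NS1 cells. For all but PSMD14 the NS1 groups did not overlap, so any pairing would give this, and it adds no support. In the fit without blocks none passed, with adjusted p of 0.417, 0.293, 0.396, 0.267, 0.371 and 0.507 in the same order, and none passed with blocks that joined the lines by number, with adjusted p from 0.112 to 0.228. Proliferation markers fell in the same NS1 libraries, and their part in these values was not tested.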

How the results depend on the processing

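The number of members called depended on the fit, and so did the share of all genes. For the inducer in NS1 cells that share was 6.15% in the main analysis, 6.35% with library totals and 8.37% with DESeq2. It was 13.6% with the block by number and 25.9% with the block within lines. No such share is given for fits with no low-count filter, with only the groups compared or without 1 library. Their counts are therefore not read as results about the members. For the inducer in NS1 cells the number of members called was 0 in the main analysis and between 0 and 3 when a replicate number was left out. It was 2 with library totals, with no low-count filter, with only the groups compared and with DESeq2. With the replicate block it was 4 by number across lines and 9 within each line. For untreated lines it was 3, against 5 with no filter and with DESeq2, 1 with only the groups compared, 7 with the replicate block and 0 to 4 with a replicate number left out. For lines with inducer it was 18, and 2 to 18 with a replicate number left out, while leaving out 1 library gave 10 to 16, and 1 to 4 for untreated lines. For the interaction it was 0, against 6 with the replicate block within each line. RBX1 for the inducer in NS1 cells, at -0.03, was 0.05 without replicate 2 and ranged from -0.13 to 0.06 without 1 library. Small inducer values of other members also changed sign: without replicate 2, negative values went from 37 to 31 of 46 in NS1 cells and from 8 to 27 of 46 in WT cells.

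Across lines, libraries with the same number were not treated as pairs in the main analysis. Their correlations were 0.136, 0.072 and 0.19 untreated and 0.153, 0.12 and 0.006 with inducer. Unlike numbers gave -0.148 to -0.019 untreated and -0.164 to 0.114 with inducer. Same-numbered untreated libraries thus deviated together weakly, and leaving them unpaired was a choice that these values do not settle. The block by number there called 7 untreated members (15.2%, against 22.0% of all genes) and 21 with inducer (45.7%, against 37.5%). Within lines, the block changed no call of the inducer comparisons or the interaction beyond those given above. RLE factors and a minimum of 10 counts in every library kept each count within 1.5 times its main value. Groups of 3 libraries limit the precision of small changes, and levels of CAND2 and of genes with overlapping or near-identical copies are uncertain.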
